A study of Arabidopsis thaliana with 12 samples.

Results

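The CAX genes of Arabidopsis encode membrane proteins that exchange cations, mainly calcium, for protons. The 9 loci described here are those named CAX1 to CAX9 in the order AT2G38170, AT3G13320, AT3G51860, AT5G01490, AT1G55730, AT1G55720, AT5G17860, AT5G17850 and AT3G14070. They were chosen by name from the 37899 annotated nuclear genes of TAIR10.1, of which 27444 are protein-coding, and all 9 were found. The annotation gives AT5G17850 no symbol, so that CAX8 is the name of the list for that locus, and it gives CAX9 the second name CCX3. CAX9 is set here against the 8 other genes.

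DNA came from leaf tissue of the ecotype Col-0, which the labels spell Col-O. The 12 labelled libraries were 4 of plants treated with SA-CNPs, which are chitosan nanoparticles loaded with salicylic acid, 4 of plants inoculated with the powdery mildew fungus Podosphaera xanthii and 4 of control plants, from 2 plant samples per condition. The labels call the tissue leaf, and the methods describe whole young plants without roots. Methylation was measured by enzymatic methyl-seq, in which unmethylated cytosines are converted and a C that remains in a read counts as methylated. The values come from 1 table of CpG cytosines pooled over libraries that the sources used here do not name. It has no known condition and no replicates, and the pool may hold libraries of a single treatment, so that the levels may be those of treated plants alone. No treatment was compared with another, and all errors below are counting errors.

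In land plants, methylation at CpG is copied to both strands after replication by the maintenance enzyme MET1. Many genes that are expressed in most tissues carry it in the middle of the transcribed part and lack it at both ends, a pattern called gene body methylation, whereas transposons carry it throughout. CAX1 to CAX6 are the exchangers proper, of which several move calcium into the vacuole in exchange for protons. CAX7, CAX8 and CAX9 belong to the related cation/calcium exchangers, also called CCX1, CCX2 and CCX3. In plant cells, such exchangers bring the calcium level of the cytosol down after a signal and store calcium, manganese and other metals.

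The table had reads at 5465516 of 5567714 nuclear CpG cytosines (98.2%), with a median of 58 reads per covered cytosine. The 27 regions read here, the 9 bodies and the 1000 bp on both sides of each, had medians of 44 to 74.5 reads. Only 2 of their cytosines were listed without reads, both in the 1000 bp below CAX9, where 4 more had 5 to 13 reads. A methylation level is the share of methylated among all calls of a region. Its 95% Wilson interval treats every call as separate, although calls can come from the same read. Chloroplast DNA, which is taken as unmethylated, is a guide to the level of false calls: 0.367% of the 126754233 CpG calls there were methylated. It is not the floor of nuclear levels, since some regions lay below it, such as the upper flank of CAX4 with 0.04% (0.0110 to 0.146%). The annotation used here gives neither strand nor exons, so the sides of a gene are called below and above by coordinate, and exonic or intronic position is not known.

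The body levels of the 9 genes ran from 0.189% to 49.3%. CAX9 (chromosome 3, 4660944 to 4663363) had 846 methylated of 9099 calls in its body, a level of 9.30% (8.72 to 9.91%), and stood in the middle of the family. CAX5, a vacuolar exchanger of calcium and manganese, was highest with 4044 of 8206 calls (49.3%, 48.2 to 50.4%). CAX8 followed with 25.2% (24.2 to 26.2%) and CAX2, which moves manganese and calcium into the vacuole, with 23.0% (22.2 to 23.9%). CAX6 had 13.3% (12.5 to 14.2%).

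Below CAX9 came CAX1, the main calcium/proton exchanger of the leaf vacuole, with 882 of 14233 calls (6.20%, 5.81 to 6.60%). CAX3, which acts in the same membrane, had 1.32% (1.13 to 1.54%). CAX7 with 41 of 9923 calls (0.413%, 0.305 to 0.560%) and CAX4 with 19 of 10034 (0.189%, 0.121 to 0.296%) were near or below the level of chloroplast DNA. No CpG of CAX7 exceeded 2.36%, and none of CAX4 exceeded 1.54%, so these 2 bodies carried no detectable CpG methylation at this depth.

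**Figure D1:**
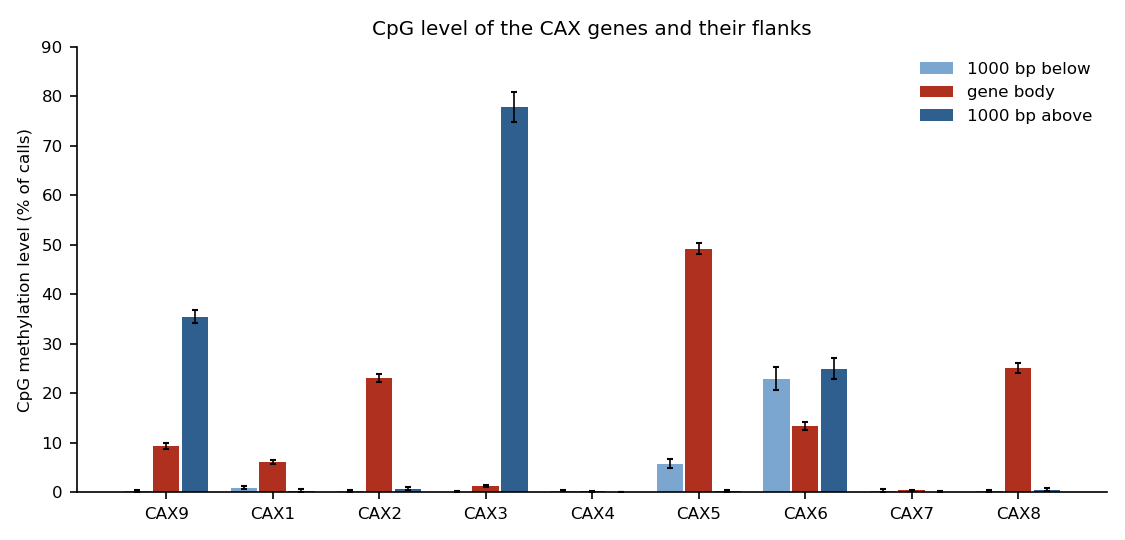
CpG methylation level (percent of calls) in the gene body and in the 1000 bp below and above it, for CAX9 and then CAX1 to CAX8, with 95% Wilson intervals (counting error). The body is highest in CAX5 at 49.3%, and the flank above is highest in CAX3 at 78.0% and next in CAX9 at 35.5%.

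In the body of CAX9 the methylation formed a single compact stretch. All 9 methylated CpGs of the 74 in the body, counted with both strands summed and taken as methylated at 25% or more, lay in 334 bp from 4662059 to 4662392 on chromosome 3. The first at 4662059 had 116 methylated of 131 reads (88.5%), the next at 4662127 had 99 of 121 (81.8%), and that at 4662214 had 96 of 113 (85.0%). The CpG at 4662256 had 79.8%, that at 4662258 had 94.6%, that at 4662269 had 78.2% and that at 4662316 had 95.3%, the highest of the body. These 7 follow each other without an unmethylated CpG and together had 671 of 781 reads methylated (85.9%, 83.3 to 88.2%).

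The stretch of CAX9 was then interrupted. The CpG at 4662360 had 0 of 99 reads methylated, and 2 more methylated CpGs followed, with 87.3% at 4662379 and 65.0% at 4662391. The 39 CpGs of the body below this stretch reached at most 0.746% and the 25 above it at most 2.78%. The level of 9.30% is thus the average of a short stretch with 76.2% of calls methylated and a body that is otherwise free of methylation, 1115 bp on its lower and 971 bp on its upper side.

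**Figure D2:**
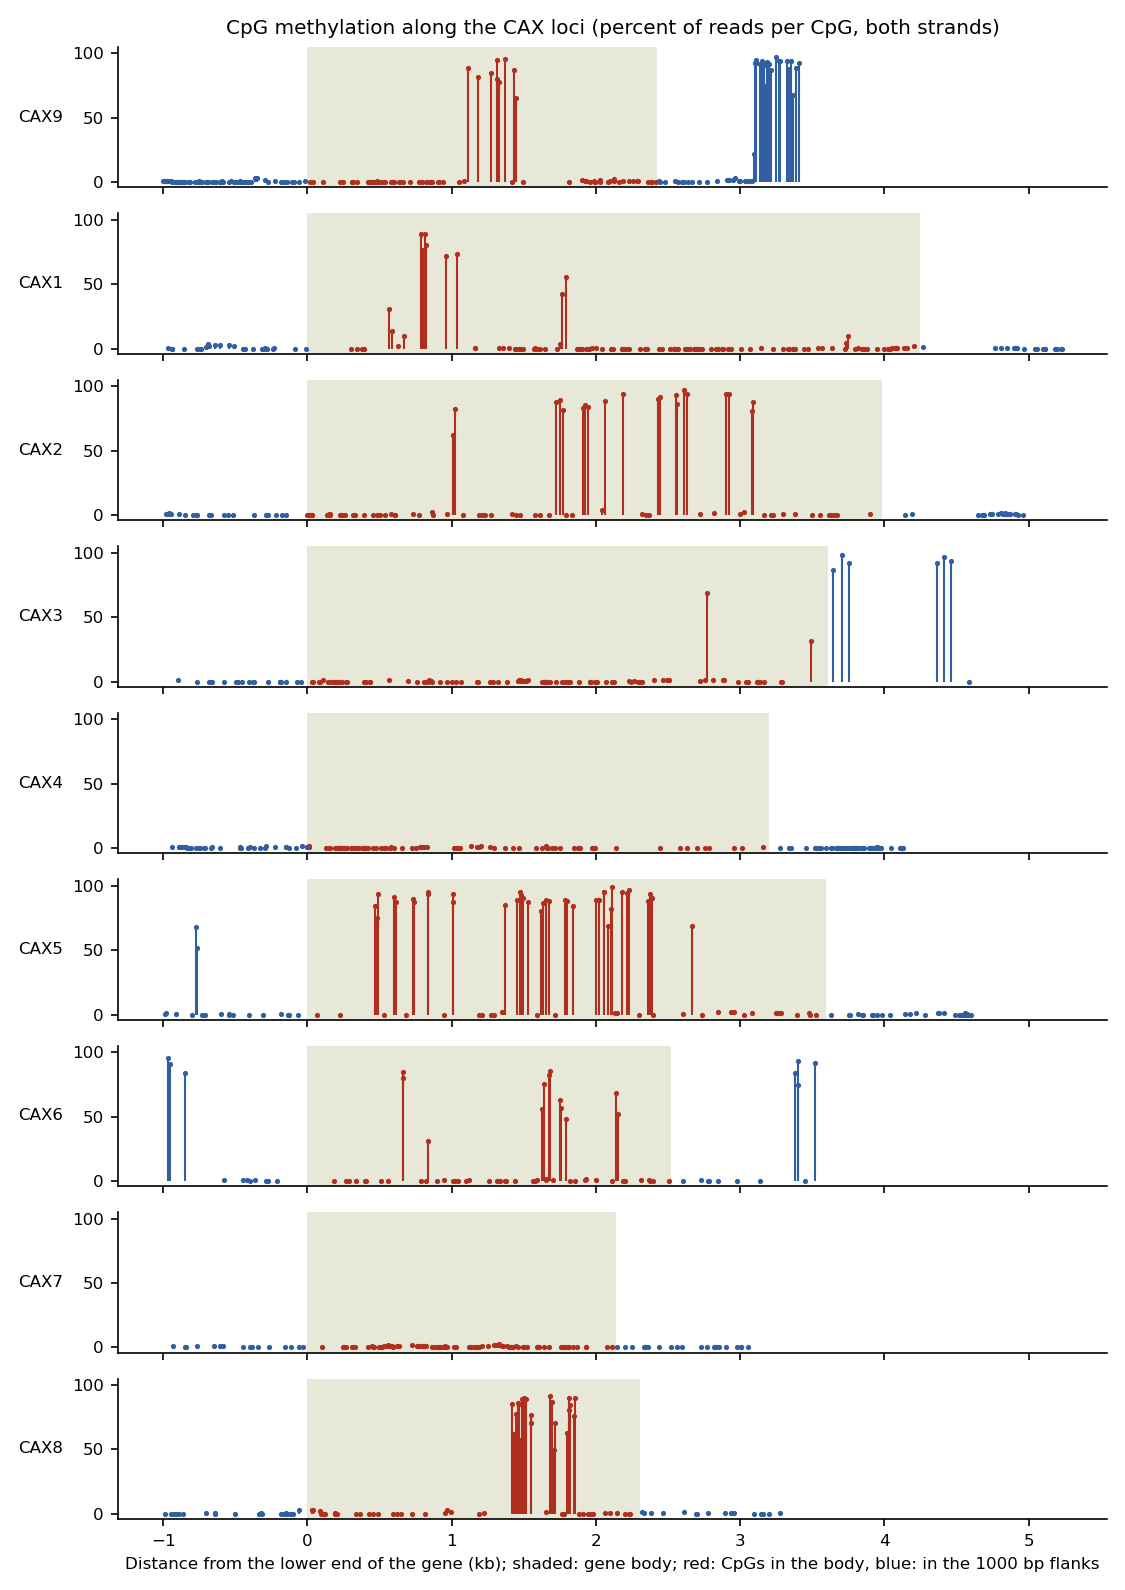
Methylation of each CpG (percent of reads, both strands summed) against the distance from the lower end of the gene in kb, with the gene body shaded, CpGs of the body in red and CpGs of the 1000 bp flanks in blue. CAX9 on top shows 9 methylated CpGs in the middle of its body and 20 at the far end of the upper flank, while CAX4 and CAX7 show none.

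The flanks of CAX9 are mostly parts of its neighbours. Its lower end overlaps the protein-coding gene AT3G14067 by 2 bp, and all 134 covered cytosines of the 1000 bp below lie in that gene. They had 19 of 7342 calls methylated (0.259%, 0.166 to 0.404%), and AT3G14067 as a whole had 0.318%. The 1000 bp above CAX9 had 1737 of 4897 calls methylated (35.5%, 34.1 to 36.8%), which divide at a gene border. The first 205 bp are intergenic, and their 15 cytosines had 2 of 1084 calls methylated (0.185%). The next gene, AT3G14075 (4663569 to 4667079), begins there, and the 74 cytosines of it that fall in the upper flank of CAX9 had 45.5% (43.9 to 47.1%).

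The methylated CpGs of the upper flank therefore all belong to AT3G14075. They are 20 CpGs in a row within 305 bp, from 4664046 to 4664350, at 67.8 to 97.5% with a median of 92.7%, and 1699 of their 1889 reads were methylated (89.9%, 88.5 to 91.2%). The flank stops at 4664363, and the next methylated CpG of AT3G14075 lies at 4664364. The 305 bp are thus not the full extent of methylation in that gene. Of the 59 cytosines at 25% or more within 1000 bp of CAX9, 41 lay inside AT3G14075 and 18 in CAX9 itself. AT3G14075 carried 40 more in the rest of its body, and over its whole length it had 27.7% (27.0 to 28.4%). Most methylated cytosines counted at CAX9 with flanks of 1000 bp thus lay in the neighbouring gene.

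To see where CAX9 differs from its relatives, the numbers of methylated and other CpGs were compared between CAX9 and each of the 8 other genes, for the body and both flanks, by a two-sided Fisher's exact test with Benjamini-Hochberg adjustment over the 24 tests. The test compares CpGs of this pool, whose neighbours are not independent, and not treatments. In the body, 9 of 74 CpGs (12.2%) were methylated in CAX9. This was more than the 0 of 86 in CAX4 (exact test, adjusted p = 0.00207), the 0 of 85 in CAX7 (adjusted p = 0.00207) and the 2 of 103 in CAX3 (adjusted p = 0.0176). It was less than the 38 of 69 in CAX5 (exact test, adjusted p = 5.23e-07) and the 21 of 61 in CAX8 (adjusted p = 0.00693). CAX9 thus stood above CAX7 and below CAX8, the other cation/calcium exchangers of the list.

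Against the 3 other genes the body of CAX9 did not pass the threshold of 0.05. CAX9 minus CAX1 was 4.27 percentage points (95% interval -4.28 to 14.3, exact test, adjusted p = 0.631). CAX9 minus CAX2 was -12.8 points (-24.7 to -0.395, exact test, adjusted p = 0.107), and CAX9 minus CAX6 was -9.66 points (-23.4 to 3.24, exact test, adjusted p = 0.234). With single cytosines in place of CpGs, the difference from CAX2 passed (exact test, adjusted p = 0.00915), but the 2 cytosines of a CpG mostly share their state and are not independent.

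In the upper flank, 20 of 44 CpGs (45.5%) were methylated at CAX9, against 0 of 18 at CAX1, 0 of 24 at CAX2, 0 of 54 at CAX4, 0 of 28 at CAX5, 0 of 22 at CAX7 and 0 of 16 at CAX8. CAX9 was higher in these 6 tests (exact test, adjusted p from 1.24e-07 to 0.00172). CAX3 had 6 of 7 and CAX6 had 4 of 12, and these differences did not pass (exact test, adjusted p = 0.159 for CAX3 and 0.700 for CAX6). The comparison with CAX3 turned with the flank length, at -100 points with 500 bp (exact test, adjusted p = 0.00882) and 32.2 points with 2000 bp (exact test, adjusted p = 0.00104). Within 500 bp, CAX3 had only the CpGs at 19242951, 19243008 and 19243056. Without positions inside another annotated gene, all 6 differences were 0 points, and only CAX3 passed, with CAX9 minus CAX3 at -85.7 points (exact test, adjusted p = 0.0149). That comparison rests on few CpGs, with 0 of 7 methylated at CAX9 and 6 of 7 at CAX3. In the lower flank, CAX9 had 0 of 68, below the 3 of 11 of CAX6 alone (exact test, adjusted p = 0.00501).

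CAX1, CAX3 and CAX4 are the closest relatives within the exchangers proper, and they differed from each other. CAX1 (chromosome 2, 15989083 to 15993326) had 9 methylated CpGs of 114, all in the lower part of its body, and 6 of them in a row from 15989870 to 15990120 with 79.8% (76.8 to 82.5%). The other 3 had lower levels, with 30.8% at 15989650 and with 42.1 and 55.4% at the pair from 15990845 to 15990876. The 81 CpGs above them stayed at or under 9.56%, over the remaining 2450 bp of the gene.

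CAX3 (chromosome 3, 19239305 to 19242913) was almost free of methylation in its body and had it just beyond. The body had 2 methylated CpGs of 103, with 68.75% at 19242076 and 31.25% at 19242799, which is 113 bp before the upper end. The next 6 CpGs lie in the 988 bp between CAX3 and AT3G51870, which hold only 7 CpGs. They had 86.5, 98.1, 91.8, 92.5, 96.7 and 93.3%, the first of them 38 bp beyond the gene, and the spacer as a whole had 566 of 726 calls methylated (78.0%, 74.8 to 80.8%). This flank was higher than that of 95.5% of 27123 protein-coding genes, a value that belongs to this flank length, since with 2000 bp, which reach into AT3G51870, the level was 11.9%. CAX4 (chromosome 5, 195452 to 198651) had no methylated CpG in its body or flanks, with 38 of 19701 calls methylated in all.

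CAX2, CAX5 and CAX6 form the other branch, and all 3 carried body methylation. CAX2 (chromosome 3, 4314505 to 4318487) had 20 methylated CpGs of 80, spread over 2078 bp among unmethylated ones, with levels of 62.4 to 96.9% and a median of 88.2%. CAX5 (chromosome 1, 20831031 to 20834628) had 38 of 69, over 2200 bp, with levels of 68.4 to 99.0% and a median of 89.0%. CAX6 (chromosome 1, 20828118 to 20830640) had 12 of 55, over 1492 bp, with levels of 31.1 to 85.6% and a median of 65.6%. The median of CAX6 was below the lowest methylated CpG of its neighbour CAX5, and this difference was not tested.

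CAX5 and CAX6 lie side by side, 390 bp apart, and the DNA between them was unmethylated. Its 5 CpGs had 1 of 742 calls methylated (0.135%). The flank above CAX6 had 401 of 1602 calls methylated and that below CAX5 had 143 of 2474 (5.78%), but the methylated CpGs of both lie inside the other gene. Without positions in another gene, both flanks had 0.135%. On its far side, CAX6 has a spacer of 1975 bp towards AT1G55710, in which 12 of 20 CpGs were methylated at 68.1 to 95.8%, and 1114 of 2292 calls (48.6%, 46.6 to 50.7%) overall. The nearest of these CpGs lies 849 bp from the gene.

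CAX7 and CAX8 are also neighbours, and only CAX8 had methylated CpGs. CAX8 (chromosome 5, 5898852 to 5901157) is known from work on CCX2 as an exchanger of the endoplasmic reticulum that affects salt tolerance. It had 21 methylated CpGs of 61, at 49.5 to 91.7% with a median of 84.8%, and all lay in 440 bp from 5900268 to 5900707 together with 4 unmethylated ones. The first 11 followed each other within 137 bp. CAX7 (chromosome 5, 5902394 to 5904532), whose protein CCX1 has been linked to leaf senescence, begins 1236 bp further on and had none of 85. The 20 CpGs between the genes had 12 of 2734 calls methylated (0.439%).

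In the 7 genes with a methylated CpG, methylation kept away from the gene ends, with CAX3 as the exception. Except in CAX3, at least 370 bp at either end of the body held no methylated CpG. Among the 10703 protein-coding genes with a body level of 10% or more, the level was 9.68% in the first 10% of the body by coordinate, 46.5 and 47.0% in the fifth and the sixth bin, and 10.5% in the last. CAX9 had its 2 methylated bins in the fifth and the sixth, with 42.9 and 73.5%. CAX8 peaked nearer the upper end, in the seventh with 79.1%, and CAX1 nearer the lower end, in the second with 49.0%.

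**Figure D3:**
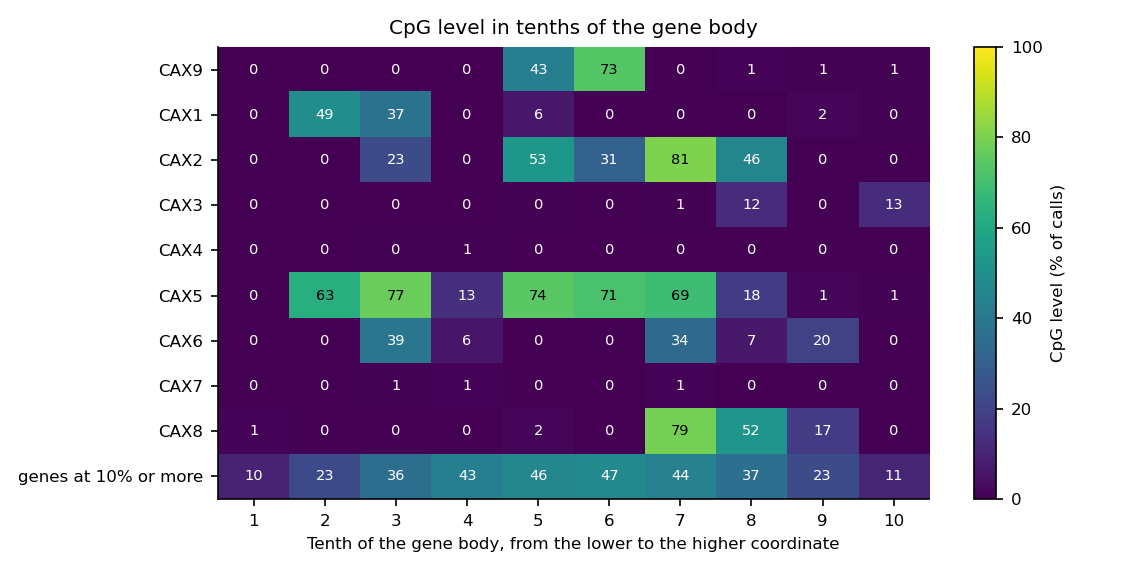
CpG level (percent of calls, color and numbers) in 10 equal parts of the gene body from the lower to the higher coordinate, for CAX9, then CAX1 to CAX8, and in the bottom line for the 10703 protein-coding genes at 10% or more. CAX9 is methylated in the fifth and the sixth part alone, where the average of the 10703 genes is also highest.

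Of the 222 body cytosines at 25% or more in the 9 genes, 59 (26.6%) lay between 25% and 75%, beside 16.6% of the 614088 such cytosines of all protein-coding genes with at least 20 covered cytosines. In CAX9 they were 3 of 18, in CAX5 6 of 76 and in CAX2 3 of 40. In CAX6 they were 17 of 24, in CAX8 15 of 42, in CAX1 11 of 18 and in CAX3 4 of 4. Partial methylation was thus mainly found in CAX6, CAX8, CAX1 and CAX3, and the difference between the genes was not tested. In a pool, a cytosine that is partly methylated in every plant and one that differs between plants or libraries cannot be told apart.

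The 2 strands carried similar levels at the CpGs that were methylated with both strands summed. Among these 140 CpGs of the 9 loci, the strands differed by a median of 4.70 percentage points, and none was at 25% or more on 1 strand alone. This choice leaves out a CpG with 1 strand at 25% or more and a sum below 25%. At least 1 exists, since the upper flank of CAX9 had 41 cytosines but 20 CpGs at 25% or more. A single CpG of the 140 was more than 25 points apart, at 4664116 in AT3G14075 beside CAX9, with 44.8% of 29 reads on the plus strand and 89.5% of 57 reads on the minus strand.

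The table also gives the base that follows each CpG. Of the body cytosines of the 9 genes, 38 of 391 before a T (CGT, 9.72%, 7.16 to 13.1%) were at 25% or more, beside 87 of 500 in CGA (17.4%), 45 of 272 in CGC (16.5%) and 52 of 290 in CGG (17.9%). Over all protein-coding genes the share was also lowest in CGT, with 14.2% beside 19.6 to 21.2% in the other 3. In CAX9 alone, 1 of 26 was methylated in CGT, 6 of 56 in CGA, 6 of 40 in CGC and 5 of 25 in CGG, and this was not tested.

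With a gene called methylated at a body level of 10% or more, 4 of the 9 were called (CAX5, CAX8, CAX2 and CAX6), beside 40.6% of the 26378 protein-coding genes with at least 20 covered CpG cytosines. This count is near the background and is not a result about the family. At 5% or more, 6 were called beside 49.9%, and at 20% or more, 3 beside 26.6%. The median body level was 9.30% for the 9 genes and 4.95% for the 26378. CAX9 lay above 58.2% of them, CAX5 above 94.6% and CAX4 above 10.5%. CAX9 fell just short of the call, and as the mean of its cytosines' levels it would pass with 10.5%.

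**Figure D4:**
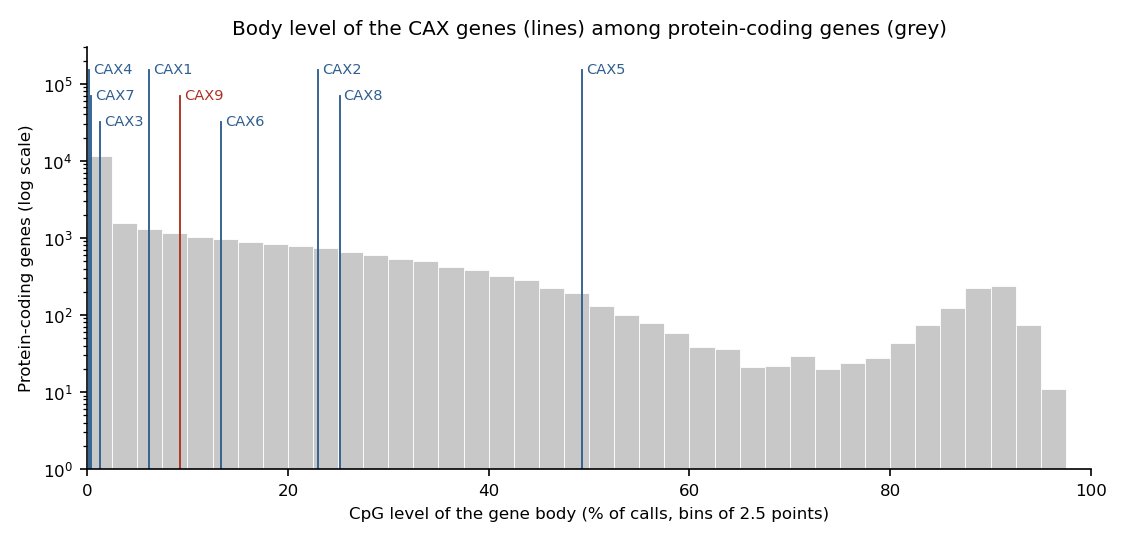
Number of protein-coding genes (log scale) by CpG level of the gene body in bins of 2.5 percentage points, with the level of each CAX gene as a line, CAX9 in red. CAX4, CAX7 and CAX3 fall in the large class near 0%, CAX9 at 9.30% lies in the broad middle, and none of the 9 reaches the small class near 90%.

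Of the 18 flanks of 1000 bp, 13 were below 1%, and this count was 17 with 500 bp and 8 with 2000 bp. The flank above reached 10% in CAX3, CAX9 and CAX6, 3 of 9 genes beside 29% of 27123 protein-coding genes with at least 10 covered cytosines there. The flank below reached it in CAX6 alone, 1 of 9 beside 29.2% of 27118. With 500 bp the lower flank of CAX6 had 0.349%, and with 2000 bp the lower flanks of CAX5, CAX6 and CAX7 had 11.6, 49.9 and 16.7%.

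Related genes were read from a list of 29 calcium pumps, other cation exchangers, vacuolar proton pumps with a channel, and regulators. All 29 were found in the annotation, and 22 had a body level of 10% or more, beside the same background of 40.6%. The median of the 29 was 22.0%. Bodies differed in length, with a median of 3200 bp for the CAX genes, 3977 bp for the 29 and 2131 bp for the protein-coding genes compared, and the part of body length in these counts was not tested.

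The calcium pumps had 11 of 14 genes at 10% or more, beside 40.6% of the protein-coding genes. The pumps of the endomembrane type were highest, with 44.5% in ECA3, 43.8% in ECA1, 38.6% in ECA4 and 36.0% in ECA2. Of the autoinhibited pumps, ACA2 had 28.1%, ACA8 27.8% and ACA10 22.3%, while ACA4 had 22.0%, ACA7 17.5%, ACA1 17.2% and ACA12 (AT3G63380) 15.5%. Below 10% were ACA9 with 8.58%, ACA13 (AT3G22910) with 3.125% and ACA11, a pump of the vacuole like ACA4, with 1.32%.

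Of the 7 other exchangers, 5 were at 10% or more, beside the same 40.6%. The calcium-binding exchanger gene AT2G34020 had 29.2%, CCX4 had 26.2%, NCL (AT1G53210), which exchanges sodium and calcium, had 22.8%, the magnesium/proton exchanger MHX had 13.9% and AT1G29025 had 12.4%. CAX11, also called CCX5, had 9.88% and AT1G29020 had 3.91%. The 5 cation/calcium exchanger genes CAX7, CAX8, CAX9, CCX4 and CAX11 ran from 0.413% in CAX7 to 26.2% in CCX4.

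Of the vacuolar pumps and the channel, 3 of 4 were at 10% or more, beside the same 40.6%. They were the proton pump subunits VHA-A3 with 36.9% and VHA-A2 with 34.3% and the calcium-permeable channel TPC1 with 32.8%. The proton pyrophosphatase AVP1 had 0.291%. Of the regulators, the kinase SOS2 had 28.8%, and CXIP4 and CXIP2, named for binding to CAX1, had 21.1% and 18.5%. CXIP1 had 0.281%.

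**Figure D5:**
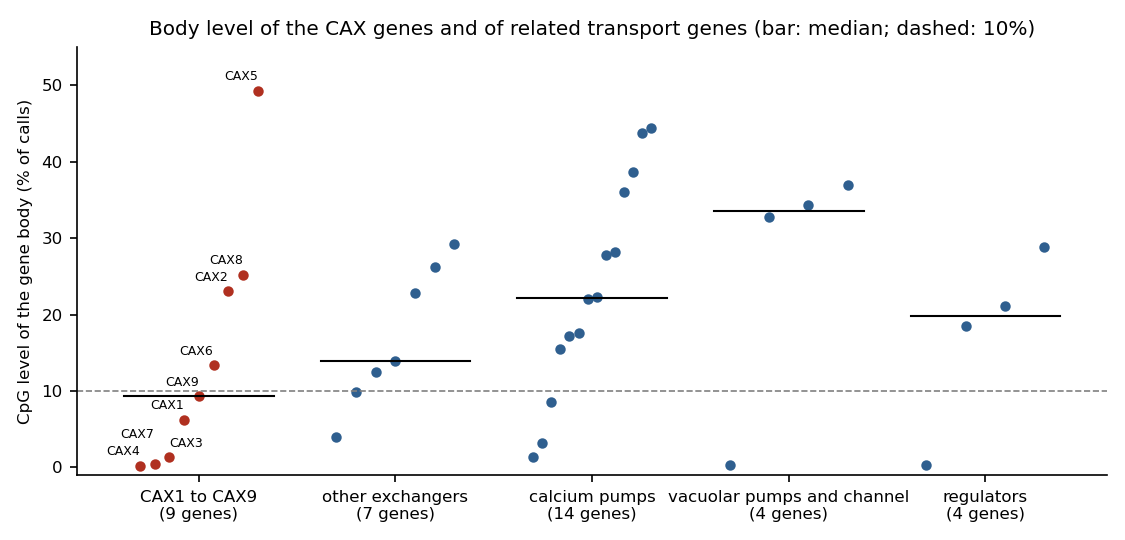
CpG level of the gene body (percent of calls) of the 9 CAX genes and of 29 related genes in 4 groups, 1 point per gene, with the median of a group as a bar and 10% as a dashed line. The CAX genes have the lowest median at 9.30%, and every group holds at least 1 gene below the line.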

How the data were processed

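Per the study's methods, low-quality reads were removed by Trimmomatic. Bismark with Bowtie 2 placed the rest on TAIR10.1, where unique hits without duplicates were kept and methylation was called by the authors. Read starts were trimmed only where a bias was detected, and whether this applied to the pooled libraries is not stated. The deposited table holds counts of methylated and unmethylated reads per CpG cytosine and strand, pooled over libraries, without normalization. No covered cytosine had fewer than 5 reads in all, so a cytosine listed without reads may have had fewer than 5.

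Regions were the annotated gene and 1000 bp on either side, with cytosines of at least 5 reads. The design foresaw flanks oriented by strand, and coordinates were used instead because no strand was given. A CpG at 25% or more counted as methylated. The study's methods use this minimum for single cytosines, together with a binomial test that was not run here. Named genes were the 9 members, related genes at 10% or more, annotated neighbours within 1000 bp and the 3 genes most like CAX9 in the levels of both flanks and the body. The 7 related genes under 10% and the spacers' farther neighbours were named after their values were seen. The members and lists were chosen with earlier results of these data known. Levels and Fisher's exact tests were computed with scipy 1.17.1, numpy 2.4.6 and pandas 2.3.3 under Python 3.11.15, figures were drawn with matplotlib 3.10.9, and the code was tested on simulated data.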

Additional observations from a re-analysis of the deposited data

How the results depend on the processing

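No paired analysis was possible because 1 pool without replicates or known condition was read, and for the same reason no replicate could be left out. The 3 coverage settings (at least 1 read, at least 10 reads, none above 195 reads) say nothing about stability: they changed 1 of 195 values, since cytosines of the members had 5 to 97 reads. As the mean of the cytosines' levels, CAX9 had 10.5% in the body and 41.3% in the upper flank. The flanks depend on their length and on the neighbours: the upper flank of CAX9 had 0.339% with 500 bp, 38.0% with 2000 bp and 0.185% without positions inside another gene. Relatives that differed from CAX9 in the upper flank numbered 1 in place of 6, both with 500 bp and without positions inside other genes. None of the 6 remained, and the 1 was CAX3, with CAX9 lower. In the lower flank the relatives that differed numbered 2 with single cytosines, 0 with 500 bp (Fisher's exact test) and 4 with 2000 bp, in place of 1, and no CpG of that flank of CAX9 was left outside AT3G14067. CAX9 minus CAX3 in the upper flank turned to 32.2 points with 2000 bp (exact test, adjusted p = 0.00104), and the cause was not tested. With strands summed, CAX9 had 29 methylated CpGs in place of 59 cytosines. A body level of 5% or 20% called 6 or 3 of the 9 CAX genes and 24 or 16 of the 29 related genes. The share of the 26378 protein-coding genes was 49.9% or 26.6%. Under the other settings, 143 of 214 recomputed values kept their direction and side of the threshold, moved within their interval or, for counts, stayed within 1.5 times. Levels under about 0.367% lie below that of chloroplast DNA and are not read as methylation, and the 95% intervals do not cover differences between plants. Single libraries, treatments and non-CpG contexts were not analysed here.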

Other observations

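The 3 protein-coding genes most like CAX9 in the levels of lower flank, body and upper flank, of 26725 compared in this 1 pool, were PNM1 (AT5G60960) with 0.329, 9.13 and 35.2%, AT1G66880 with 0.554, 9.11 and 35.5% and AT3G18620 with 0.347, 9.91 and 35.7%. They were 0.322, 0.349 and 0.673 percentage points away. This likeness over 3 levels is a description.

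Above CAX7, 6 of 66 CpGs in the 3056 bp towards PSRP6 were methylated, at 26.7 to 92.3%, the nearest 2543 bp from the gene. The 2875 bp below CAX2 had 14 of 7486 calls methylated (0.187%) and the 3413 bp below CAX3 had 16 of 8222 (0.195%). The annotated genes within 1000 bp of a member that are no members themselves ranged from 0.0739% in the noncoding AT2G08940 near CAX1 to 27.7% in AT3G14075, with 15.0% in TAAC beside CAX4, 11.5% in AT3G51870 beside CAX3 and 6.83% in SIP1 beside CAX5.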
